A study of Mus musculus with 11 samples.

Results

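Microglia sorted from brains of Zeb2KO mice held a group of cells with transcripts of both Il1b, which encodes the cytokine IL-1β, and Tnf, which encodes tumour necrosis factor. Its members were chosen by their own counts, as the cells with 5 or more Il1b unique molecular identifiers (UMIs, each standing for one captured transcript) and 1 or more Tnf UMIs. Of the 3501 cell barcodes of the Zeb2KO brain library, 322 met this rule, or 9.20% (exact binomial 95% interval 8.26% to 10.2%). The whole series holds 51712 barcodes in 11 libraries. The members were set against the 2151 cells of the same library with an Il1b count of 0 (Il1b-0 cells), and the 926 cells with 1 to 4 Il1b UMIs stood between. In the WT brain library, 27 of 3097 cells met the same rule, or 0.872% (0.575% to 1.27%). These intervals, like all others given, cover counting error only.

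The WT cells came from Zeb2fl/fl mice without CRE, and the Zeb2KO cells from their Fcgr1-crexZeb2fl/fl littermates. Both carry the floxed Zeb2 allele, in which part of the gene is flanked by loxP sites. The CRE is knocked into Fcgr1, the gene of the receptor CD64, so that it is active in macrophages (macs). In reporter mice of the study it also reached CD64-negative immune cells such as B cells, T cells and dendritic cells. Microglia were sorted as live CD45int cells positive for F4/80 and CD64, after enzymatic digestion of the brain at body temperature, and each genotype was sequenced as 1 droplet library (10x Genomics). With 1 library per genotype, no difference has a replicate check, and the age, sex and number of mice behind a library are not in its labels. Genotype and library therefore cannot be told apart.

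Microglia are the resident macs of the brain parenchyma, marked by genes such as P2ry12 and Tmem119. IL-1β is made as an inactive precursor that inflammasome proteases cut, whereas IL-1α, from Il1a, can act without cleavage. Transcription of Il1b, Il1a, Tnf and many chemokine genes is driven by NF-kB and AP-1 factors downstream of Toll-like, IL-1 and TNF receptors. NF-kB also switches on its own brakes, among them Nfkbia and Tnfaip3. The same genes, and immediate early genes with them, are known to be induced in microglia when tissue is dissociated with warm enzymes.

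The 5 genes named for these cells lie, on GRCm38 (GENCODE M21), at chr2:129364570-129371139 (Il1b, minus strand), chr2:129299610-129309972 (Il1a, minus strand), chr17:35199381-35202007 (Tnf, minus strand), chr15:79346621-79359076 (Maff, plus strand) and chr17:29490753-29496112 (Pim1, plus strand). The promoters below, from 250 bases before to 50 bases after the annotated start in RefSeq (GRCm38.p6), belong to both rule genes and to 3 genes that were higher in the members. Capitals mark matches, on either strand, to the consensus of NF-kB (the kappaB consensus) or to that of AP-1 (TGANTCA).
Il1b, chr2:129371090-129371389 (minus strand): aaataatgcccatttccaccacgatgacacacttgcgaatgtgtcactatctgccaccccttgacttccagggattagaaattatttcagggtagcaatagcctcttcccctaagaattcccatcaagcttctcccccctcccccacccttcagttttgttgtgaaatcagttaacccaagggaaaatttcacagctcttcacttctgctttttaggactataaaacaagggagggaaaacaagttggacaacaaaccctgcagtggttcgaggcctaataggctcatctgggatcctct
Tnf, chr17:35201958-35202257 (minus strand): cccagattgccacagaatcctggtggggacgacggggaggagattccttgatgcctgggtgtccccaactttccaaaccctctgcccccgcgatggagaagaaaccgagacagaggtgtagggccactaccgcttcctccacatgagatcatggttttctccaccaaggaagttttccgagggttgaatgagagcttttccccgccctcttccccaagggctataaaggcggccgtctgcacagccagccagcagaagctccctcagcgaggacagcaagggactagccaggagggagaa
Il1a, chr2:129309923-129310222 (minus strand): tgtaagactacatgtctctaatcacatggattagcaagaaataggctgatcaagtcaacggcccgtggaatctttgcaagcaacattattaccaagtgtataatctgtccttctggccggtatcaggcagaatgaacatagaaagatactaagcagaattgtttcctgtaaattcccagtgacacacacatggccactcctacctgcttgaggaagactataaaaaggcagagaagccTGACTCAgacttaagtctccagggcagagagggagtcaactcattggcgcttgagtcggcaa
Cxcl10, chr5:92348840-92349139 (minus strand): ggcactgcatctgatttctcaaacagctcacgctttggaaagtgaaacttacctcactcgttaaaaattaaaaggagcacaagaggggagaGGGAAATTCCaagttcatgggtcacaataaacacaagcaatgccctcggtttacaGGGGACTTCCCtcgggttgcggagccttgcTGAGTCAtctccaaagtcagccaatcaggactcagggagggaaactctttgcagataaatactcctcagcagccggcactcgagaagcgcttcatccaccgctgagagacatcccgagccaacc
Tnfaip3, chr10:19015361-19015660 (minus strand): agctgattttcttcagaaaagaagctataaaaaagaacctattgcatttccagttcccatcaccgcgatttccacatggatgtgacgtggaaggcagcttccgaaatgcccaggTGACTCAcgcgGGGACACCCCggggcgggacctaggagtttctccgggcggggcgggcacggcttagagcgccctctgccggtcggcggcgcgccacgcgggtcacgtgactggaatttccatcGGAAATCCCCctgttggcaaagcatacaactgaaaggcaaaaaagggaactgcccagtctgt
Within these windows the Cxcl10 promoter held 3 kappaB matches, of which one pair overlaps, and 1 AP-1 match, and that of the Tnfaip3 start site shown held 2 and 1. Il1a held 1 AP-1 match beside its start site, and the windows of Il1b and Tnf held neither. Nor did the other Tnfaip3 start site, both windows of Pim1 or 2 of 3 of Maff, the remaining one of which held 1 kappaB match. For scale, 8.46% of the 32851 RefSeq promoters of this length held a kappaB match and 7.81% an AP-1 match. Of the 4448 genes with an entry that were considered in the comparison below, 12.4% held a kappaB match and 6.27% an AP-1 match. A match is a string of letters and no measured binding. Of the 106 genes higher in the members, 80 (75.5%) have an entry in this promoter set, so no share over all 106 can be given. Among these 80, 23 (28.75%) held a kappaB match and 10 (12.5%) an AP-1 match. Whether these shares differ from those of the considered genes was not tested.

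Il1b in the members ranged from 5 to 108 UMIs per cell with a median of 17, and Tnf from 1 to 87 with a median of 5. The rule cuts a continuous range and not a separate set of cells. Just outside it lay 16 cells with 4 Il1b UMIs and Tnf, and just inside it 14 cells with 5. Of the members, 84 (26.1%) had 5 to 9 Il1b UMIs, 135 (41.9%) had 20 or more, and 55 (17.1%) met the Tnf condition by a single UMI. In the WT cells meeting the rule, Il1b ranged from 6 to 97 UMIs with a median of 19, and Tnf from 1 to 27 with a median of 2. The WT range of Il1b per cell lay within that of the members, whereas 13 of the 27 WT cells (48.1%) had only 1 Tnf UMI.

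**Figure D1:**
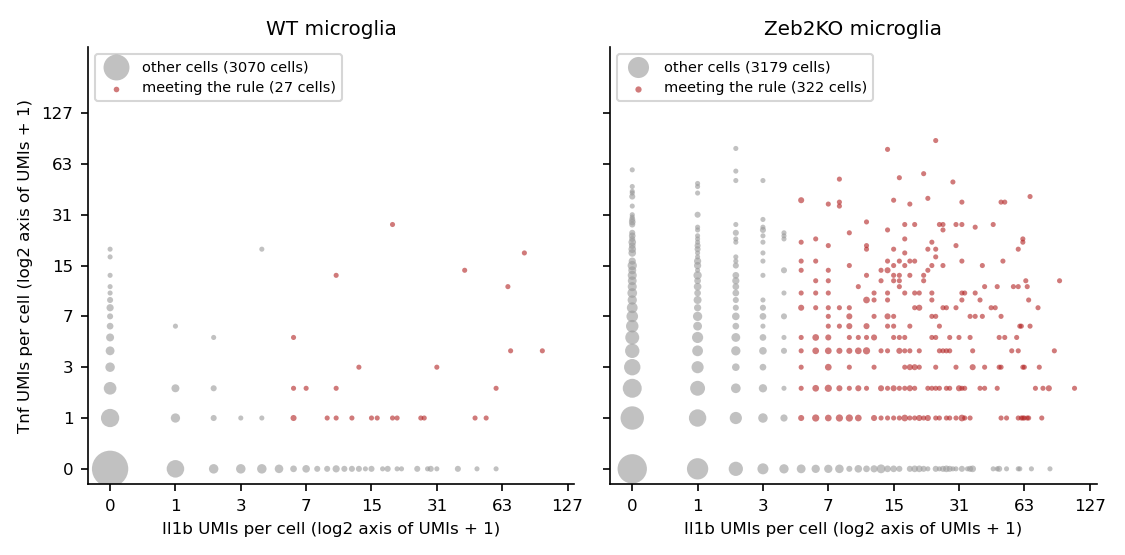
Il1b and Tnf UMIs of each cell in the WT and the Zeb2KO brain library, on log2 axes of UMIs + 1. Each point is a pair of counts, its area grows with the number of cells, and red points meet the rule (27 WT and 322 Zeb2KO cells). In the Zeb2KO panel Tnf is spread over all Il1b counts, cells with none included.

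Tnf was not confined to the members. In the Zeb2KO library 49.1% of cells with an Il1b count of 0 had at least 1 Tnf UMI (47.0% to 51.3%), and so did 56.9% of those with 1 to 4 Il1b UMIs (53.7% to 60.1%) and 75.9% of those with 5 or more (71.6% to 79.9%). Cells with 10 or more Tnf UMIs made up 4.83%, 9.07% and 23.1% of these classes. In the WT library the shares with a Tnf UMI were 8.72%, 12.9% and 36.0%. Conversely, 102 Zeb2KO cells had 5 or more Il1b UMIs and no Tnf, against 48 in WT. With Tnf disregarded, 5 or more Il1b UMIs were found in 12.1% of Zeb2KO and 2.42% of WT cells. The sort holds no cell type that should lack both genes, so the background from free RNA could not be gauged.

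For the levels that follow, cells were removed by median absolute deviations, scaled as for a normal distribution. The limit was 3 of these to either side of the library's median in the log of UMIs and of detected genes, and 3 above it in mitochondrial share. This left 307 of the 322 members and 1974 of the 2151 cells with an Il1b count of 0, and in WT 24 of 27 and 2578 of 2820. UMIs were summed over the cells of a group and scaled to a common total of 1000000 (CPM), with exact Poisson 95% intervals in brackets. As each transcript is counted at its 3′ end, gene length does not enter. The summed UMIs were 1909691 in the members and 9742832 in the Il1b-0 cells, but 143546 in the WT cells meeting the rule, where 1 UMI is worth 6.97 CPM. Members were deeper than Il1b-0 cells, with a median of 5744 UMIs against 4710 (WT 6069 against 4161), and held 2020 against 1839 detected genes, while the median mitochondrial share was 1.72% against 1.60%. A deeper cell reaches 5 UMIs more easily. With every barcode of at least 2000 UMIs thinned to that number, 145 of 3302 Zeb2KO cells (4.39%, 3.72% to 5.15%) and 9 of 2817 WT cells (0.319%, 0.146% to 0.606%) met the rule, with 199 and 280 shallower cells left out. Of the 14 barcodes that the brain libraries share, 2 were members. Of the members, 21 (6.52%) were among the 229 Zeb2KO cells of highest doublet score, which are 6.54% of all. None of 12 mitochondrial and 81 ribosomal protein genes differed by 2-fold between members and Il1b-0 cells.

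The members carried the microglia genes. P2ry12 and Tmem119 were each found in 320 of 322 members. Markers of other cell types were sparse. Of 8 border mac markers, 7 were at 0 in the members, Mrc1 being the exception, and the list summed to 5.24 CPM (2.51 to 9.63) against 12.8 CPM (10.7 to 15.3) in the Il1b-0 cells. Of 8 neutrophil markers 7 were at 0, and of 8 T and NK cell markers 6, with sums of 3.67 against 1.33 CPM and 1.05 against 3.59 CPM. The 7 monocyte markers summed to 55.0 CPM (45.0 to 66.6) against 43.6 CPM (39.6 to 48.0), with Chil3 and Vcan among those at 0. The 7 B cell markers summed to 14.7 against 26.2 CPM and the 7 dendritic cell markers to 126 against 119 CPM. Neuronal markers were all at 0 in the members. Those of oligodendrocytes summed to 85.9 against 97.4 CPM, those of astrocytes to 44.5 against 65.6, those of endothelium to 26.7 against 23.4 and those of erythroid cells to 32.5 against 39.2. The part of these sums in the results was not tested.

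Zeb2 itself does not check the genotype here. Its 3′ counts were 1795 CPM (1769 to 1822) in Zeb2KO and 476 CPM (463 to 489) in WT Il1b-0 cells, and reads at the 3′ end lie outside the deleted part. In the members it stood at 1677 CPM (1619 to 1736), a log2 ratio of -0.10 to the Il1b-0 cells. Siglecf, a lectin gene of eosinophils and alveolar macs, had 412 CPM (399 to 425) in Zeb2KO and 28.6 CPM (25.5 to 31.9) in WT Il1b-0 cells, and 367 CPM (340.4 to 395) in the members. Ceacam10 had 398 CPM in Zeb2KO Il1b-0 cells and 367 CPM in the members, against 0.270 CPM in WT Il1b-0 cells. Of 10 genes that separate Zeb2KO from WT cells in this series, a list chosen on these libraries, 8 were at 20 CPM or more, none differed by 2-fold between members and Il1b-0 cells, and their median log2 ratio was -0.11. All 8 ratios were below 0, between -0.35 and -0.08.

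Across the transcriptome, more genes were higher than lower in the members at this threshold. Of 5696 genes with at least 20 CPM in the higher group, Il1b and Tnf left out, 106 were at least 2-fold higher in the members (1.86%) and 12 at least 2-fold lower (0.211%), on log2(CPM + 1). At 5 CPM or more the split was less uneven, with 204 higher and 111 lower. Against Il1b-0 cells of matched depth 89 genes were higher and 8 lower, of which 83 were among the 106 and only 4 among the 12. The median log2 ratio of all 5696 genes was -0.09. The highest ratios among genes with 50 CPM or more belonged to Nr4a2, Cxcl10, Il1a, Ccl7, Pim1, Gadd45b, Ets2, Rasgef1b, Ptgs2 and Clic4. They were followed by Ccl2, Osm, Gm6377, Ccl5, Maff, Adamts1, Tgif1, Nr4a1, Csrnp1 and Marcksl1, down to a log2 ratio of 1.61. Because cells were picked on Il1b and Tnf, genes that vary with them had to differ, so these ratios describe the members and are not a test.

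Il1a, which encodes the other IL-1 receptor agonist, stood at 1772 CPM (1713 to 1833) in the members and 365 CPM (353 to 377) in the Il1b-0 cells, a log2 ratio of 2.28 (95% interval 2.21 to 2.35). Intervals of log2 ratios, here and below, are exact ones for the ratio of counts without the added 1 CPM, and so lie off centre for low genes. Il1a was detected in 307 of the 322 members with a median of 7 and a highest count of 64 UMIs per cell, against a median of 1 in the Il1b-0 cells, whose highest count was 36. The ranges of the groups overlapped in spite of the difference in medians. Pim1, a serine/threonine kinase induced by cytokine signals, reached 212 CPM (191 to 233) against 51.6 CPM (47.2 to 56.3), a log2 ratio of 2.01 (95% interval 1.84 to 2.23). It was seen in 47.2% of members and 13.6% of Il1b-0 cells. Maff, a small MAF transcription factor, reached 107 CPM (93.2 to 123) against 32.4 CPM (29.0 to 36.2), a log2 ratio of 1.70 (95% interval 1.47 to 1.98), and was seen in 35.1% and 8.93% of cells. Against Il1b-0 cells of matched depth the log2 ratios of Il1a, Pim1 and Maff were 2.22, 1.95 and 1.28, the last below its interval. Most members had no Maff or Pim1 UMI, and the highest counts of single cells, 7 and 18, were matched by 8 and 18 in the Il1b-0 cells.

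The remaining IL-1 genes behaved unequally. Of 13 genes of the IL-1 family and inflammasome at 20 CPM or more, Il1a, Il1rn and Casp4 were at least 2-fold higher, none was lower, and the median log2 ratio was -0.02. Il1rn, the IL-1 receptor antagonist, stood at 38.7 CPM (30.4 to 48.6) against 15.1 CPM (12.7 to 17.7), and Casp4, the caspase that senses cytosolic lipopolysaccharide, at 244 CPM (222 to 267) against 116 CPM (109.5 to 123). The inflammasome sensor Nlrp3 was at 93.2 CPM (80.0 to 108) against 52.1 CPM (47.7 to 56.9), short of 2-fold. Against Il1b-0 cells that had Tnf, Il1a alone of the 3 stayed past 2-fold, with log2 ratios of 0.77 for Il1rn and 0.68 for Casp4. Genes of the cutting machinery were close to level or lower, with Casp1 at 55.0 against 57.5 CPM, the adaptor Pycard at 245 against 308 CPM and the pore-forming Gsdmd at 95.8 against 96.9 CPM. Il18, another cytokine cut by caspase-1, had 51.8 against 59.2 CPM.

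Among 14 genes for TNF ligands, receptors and adaptors at 20 CPM or more, Tnfsf9, the ligand of the receptor 4-1BB, was the one at least 2-fold higher, at 40.3 CPM (31.8 to 50.4) against 14.5 CPM (12.2 to 17.1), and the median log2 ratio was 0.06. The TNF receptor genes had log2 ratios of 0.01 (95% interval -0.15 to 0.18) for Tnfrsf1a and -0.02 (95% interval -0.16 to 0.12) for Tnfrsf1b.

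Of 17 genes for NF-kB subunits and inhibitors at 20 CPM or more, 5 were at least 2-fold higher, none lower, and 16 had a ratio above 0, with a median log2 ratio of 0.61. The 5 were Rel, Nfkbid, Nfkbiz, Tnfaip3 and Map3k8, of which Rel (0.90) and Nfkbiz (0.87) fell short of 2-fold against Il1b-0 cells with Tnf. Nfkbid and Nfkbiz, which encode nuclear IκB proteins, reached 1367 CPM (1315 to 1421) against 501 CPM (487 to 516) and 857 CPM (816 to 899.8) against 341 CPM (329.6 to 353). Tnfaip3, for the ubiquitin-editing inhibitor A20, reached 248 CPM (226 to 272) against 81.2 CPM (75.6 to 87.0), and the subunit gene Rel 229.9 CPM (209 to 252) against 105 CPM (98.6 to 112). Nfkbia, for IκBα, was the most abundant of the list and was below 2-fold, at 3934 CPM (3845 to 4024) against 2278 CPM (2248 to 2308). Rela and Nfkb1, the subunits most cells hold ready, had log2 ratios of 0.26 and 0.31.

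Chemokine genes were the most abundant of the cytokine genes. Of 12 ligands at 20 CPM or more, 7 were at least 2-fold higher, none lower, and the median log2 ratio was 1.41, the highest of the lists with 5 or more such genes. The 18 ligands listed summed to 27466 CPM (27232 to 27702) in the members and 9603 CPM (9541 to 9665) in the Il1b-0 cells. Ccl3 and Ccl4, the macrophage inflammatory proteins, made up most of this, with 10086 CPM (9944 to 10230) against 3544 CPM (3506 to 3581) and 12667 CPM (12508 to 12828) against 4406 CPM (4364 to 4448). Per cell, Ccl3 had a median of 58 UMIs in the members and 5 in the Il1b-0 cells, and Ccl4 65 and 5, but single Il1b-0 cells reached 250 and 272. The monocyte attractants Ccl2, Ccl7 and Ccl12 had log2 ratios of 1.78, 2.06 and 1.32, and Ccl5, a T cell attractant, of 1.75. Against Il1b-0 cells with Tnf, 6 of the 7 stayed past 2-fold, without Ccl12 (0.95). Ccl6, Ccl9 and Ccl24 had ratios of -0.49, -0.31 and -0.46.

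Cxcl10, an interferon-inducible chemokine, was unlike these. It had 259 CPM (236 to 283) in the members against 38.0 CPM (34.2 to 42.1), but came from 38 of 322 members (11.8%), and 1 cell held 33.5% of its UMIs. The neutrophil attractants Cxcl1 and Cxcl3 were at 0 in the members, which allows up to 1.57 CPM at 3 counts over the group, and Cxcl2 had 59.2 CPM (48.8 to 71.1) against 32.2 CPM (28.8 to 36.0). Of 9 interferon response genes at 20 CPM or more none differed by 2-fold, with a median log2 ratio of 0.38.

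Other secreted factors were few. Osm, which encodes the IL-6 family cytokine oncostatin M, stood at 219.9 CPM (199 to 242) against 63.8 CPM (58.9 to 69.1), and Csf1, the growth factor of macs, at 246 CPM (224 to 269) against 98.6 CPM (92.5 to 105). They were the 2 of 5 other cytokine genes at 20 CPM or more that were at least 2-fold higher, Csf1 no longer so against Il1b-0 cells with Tnf (0.90) or of matched depth (0.98). Under 20 CPM, and so outside these counts, Il12b, for a subunit of IL-12 and IL-23, had 19.9 CPM (14.1 to 27.3) in the members, or 38 UMIs, against 0.718 CPM, or 7 UMIs, a log2 ratio of 3.60. Il6, likewise under 20 CPM, had 14.7 CPM (9.74 to 21.2) against 3.80 CPM (2.67 to 5.23), a log2 ratio of 1.71, and Il12a, Il23a, Csf2 and Csf3 were at 0 in the members. Ptgs2, the inducible cyclooxygenase, had 59.7 CPM (49.2 to 71.7) against 16.4 CPM (14.0 to 19.2), and the prostaglandin receptor gene Ptger4 a log2 ratio of 1.40. The constitutive Ptgs1 and the synthase Hpgds had ratios of -0.28 and -0.44, so that the median over 8 prostaglandin genes was -0.20. Cd83, a maturation marker, was at 2251 CPM (2184 to 2319) against 854 CPM (835 to 872), and Cd14, the lipopolysaccharide co-receptor, at 474 CPM (444 to 506) against 225 CPM (215 to 234).

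Immediate early genes were broadly higher. Of 21 at 20 CPM or more, 13 were at least 2-fold higher, none was lower, and all 21 had a ratio above 0, with a median log2 ratio of 1.12. Nr4a2, an orphan nuclear receptor, had the highest ratio, 3.01 (95% interval 2.78 to 3.42), at 115 CPM (100.5 to 131) against 13.4 CPM (11.2 to 16.0), but was seen in only 64 of 322 members (19.9%) against 52 of 2151 Il1b-0 cells (2.42%). Against Il1b-0 cells of matched depth Cxcl10 had 2.90 and Nr4a2 had 2.44, below this interval. Its relative Nr4a1 stood at 1306 CPM (1255 to 1358) against 419 CPM (406 to 432), and Gadd45b, a stress sensor, at 366 CPM (339 to 394) against 90.7 CPM (84.8 to 96.9). Egr1 and Ier2 had log2 ratios of 1.08 and 1.28, and Fos, Junb and Jun, counted in another list, of 0.98, 0.96 and 0.58. Against Il1b-0 cells with Tnf, 9 of the 13 stayed past 2-fold, without Egr1 (0.72), Ier2 (0.84), Ppp1r15a (0.76) and Myc (0.94). Of 16 MAF and AP-1 family genes at 20 CPM or more, Maff, Fosl2 and Atf3 were at least 2-fold higher, Atf3 at 2037 CPM (1973 to 2102) against 718 CPM (701 to 735). Maf, for the large factor c-MAF, had a ratio of -0.80, opposite to Maff. Heat shock genes, which also respond to handling, had a median log2 ratio of -0.06 and none of 11 differed by 2-fold. Beside Zeb2KO cells with neither Il1b nor Tnf most of them were higher in the members, each by less than 2-fold. Dnajb1 had 2357 against 1424 CPM and Hspa8 3875 against 2470 CPM, while Hspb1 (117 against 176 CPM) and Hspd1 (209 against 214 CPM) were lower. How far the warm digestion shares in these levels was not tested.

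Survival and feedback genes were split. Of 15 cell death and survival genes at 20 CPM or more, Bcl2a1b, Bcl2a1d, Mcl1, Pmaip1 and Cdkn1a were at least 2-fold higher, of which only Bcl2a1d stayed so against Il1b-0 cells with Tnf. The Bcl2a1 paralogs share reads, so that the split between Bcl2a1b (1.20) and Bcl2a1d (1.59) is uncertain. Zc3h12a, an RNase that degrades cytokine messages, was the one of 6 mRNA decay regulators past 2-fold (median 0.40). Of 6 PIM and JAK-STAT feedback genes it was Pim1 (median 0.41), and Cd14 was the one of 7 Toll-like receptor genes (median 0.08). H2-Q6 was the one of 10 MHC class I genes, and none of 6 MHC class II or 12 glycolysis and hypoxia genes passed it. Against Il1b-0 cells with Tnf, Zc3h12a (0.59), Cd14 (0.98) and H2-Q6 (0.80) fell short of it.

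**Figure D2:**
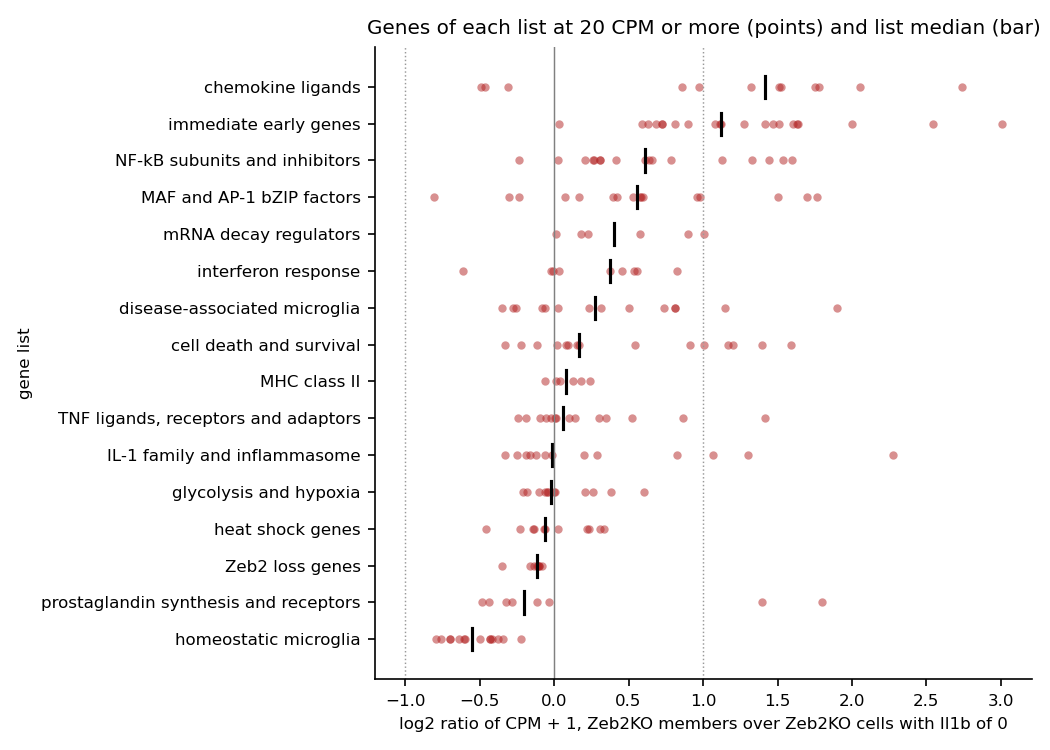
Log2 ratio of each gene, Zeb2KO members over Zeb2KO cells with an Il1b count of 0, by gene list. Points are genes with 20 CPM or more in the higher group, bars are list medians, and dotted lines mark 2-fold. Chemokine ligands (median 1.41) and immediate early genes (1.12) lie highest and homeostatic microglia genes (-0.55) lowest of the 16 lists drawn, each with 5 or more such genes.

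The homeostatic microglia genes were lower together, each by less than 2-fold. All 14 at 20 CPM or more had ratios below 0, between -0.79 and -0.22, with a median of -0.55 beside -0.09 over all genes. The ADP receptor gene P2ry12 stood at 2242 CPM (2176 to 2310) against 3645 CPM (3607 to 3683), and per cell at a median of 12 against 16 UMIs. Tmem119 stood at 1499 CPM (1445 to 1555) against 1944 CPM (1917 to 1972), and Sparc, a matricellular protein gene, at 794 CPM (755 to 835) against 1343 CPM (1320 to 1366). All 15 genes of the list summed to 18783 CPM (18589 to 18978) against 26365 CPM (26263 to 26467). Members thus held these genes in nearly every cell, at lower shares of the total. The lowest ratios among genes with 50 CPM or more were -1.65 (95% interval -2.18 to -1.25) for Gadd45g, a stress-inducible relative of Gadd45b, and -1.13 (95% interval -1.64 to -0.72) for Lyz2, the lysozyme gene. For Lyz2 the ratio was -0.44 against Il1b-0 cells of matched depth and -0.04 against Il1b-0 cells with Tnf, so its place rests on the comparison cells. Those of Npc1, Tmem100, Pdk1, 1110059G10Rik, 1500011K16Rik, Gm26802, Sgce and Maf lay between -0.96 and -0.80.

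Genes of disease-associated microglia had no common direction, with 9 of 14 ratios above 0, 2 genes at least 2-fold higher, none lower and a median log2 ratio of 0.28. Apoe, an apolipoprotein gene, had 3859 CPM (3772 to 3948) against 1740 CPM (1714 to 1766), and Gpnmb 24.6 CPM (18.1 to 32.7) against 5.85 CPM (4.43 to 7.58). The Gpnmb log2 ratio of 1.90 was 2.70 against cells of matched depth and 1.30 with equal weight of cells. Spp1, for osteopontin, had 738 CPM (699.8 to 777) against 421 CPM (408 to 434), and Trem2 a ratio of -0.28. All 4 dividing cell genes at 20 CPM or more (Top2a, Cdk1, Ube2c and Stmn1) were at least 2-fold higher, Stmn1 no longer so against Il1b-0 cells with Tnf (0.96), and the list summed to 202 CPM (182 to 223) against 55.4 CPM (50.8 to 60.3). This rested on few cells, since 9 of 307 members (2.93%, 1.35% to 5.49%) and 8 of 1974 Il1b-0 cells (0.405%, 0.175% to 0.797%) had 3 or more UMIs over Mki67, Top2a, Birc5, Cdk1, Ccnb1 and Ube2c. Without such cells 102 genes were at least 2-fold higher and 13 lower.

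Some of the levels looked at rose with the Il1b count beyond the rule's threshold, and others did not. The classes below are cut on a count the rule used, so the values are a description. The genes followed were picked, several of them from the highest ratios above. How many of all genes rise in this way was not counted. With 1974, 619, 250, 108, 128, 124 and 40 Zeb2KO cells at 0, 1, 2 to 4, 5 to 9, 10 to 19, 20 to 49 and 50 to 108 Il1b UMIs, Il1a ran from 365 and 466 CPM in the lowest pair of classes to 3256 CPM in the highest. Over the same classes Ccl3 ran from 3544 and 3765 to 12942 CPM and Nr4a2 from 13.4 and 8.43 to 183 CPM. Of the 24 genes followed besides Il1b, 10 were higher at each step over the 4 classes from 5 UMIs up, and Cd74 was the 1 that was lower at each. Maff went through 98.7, 68.9, 114 and 135 CPM over these classes, Apoe through 5099, 2506, 4189 and 7357 CPM, and Cxcl10 through 77.6, 96.1, 441 and 227 CPM. Spp1 and Il1rn had no order there, and the heat shock gene Hspa1a ended at 1967 CPM from 3440 CPM. Tnf reached 1082 CPM at 5 to 9 Il1b UMIs and then stayed between that and 1219 CPM. P2ry12 went the other way, from 3645 to 1684 CPM, while Siglecf stayed between 359 and 450.2 CPM. Of the 24 genes, 22 differed by less than 1.5-fold between cells with a single Il1b UMI and cells with none, the exceptions being Cxcl10 (94.9 against 38.0 CPM) and Nr4a2. The median depth of the classes went from 4710 to 5970 UMIs, so depth moved with the count, and its part was not tested within classes.

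**Figure D3:**
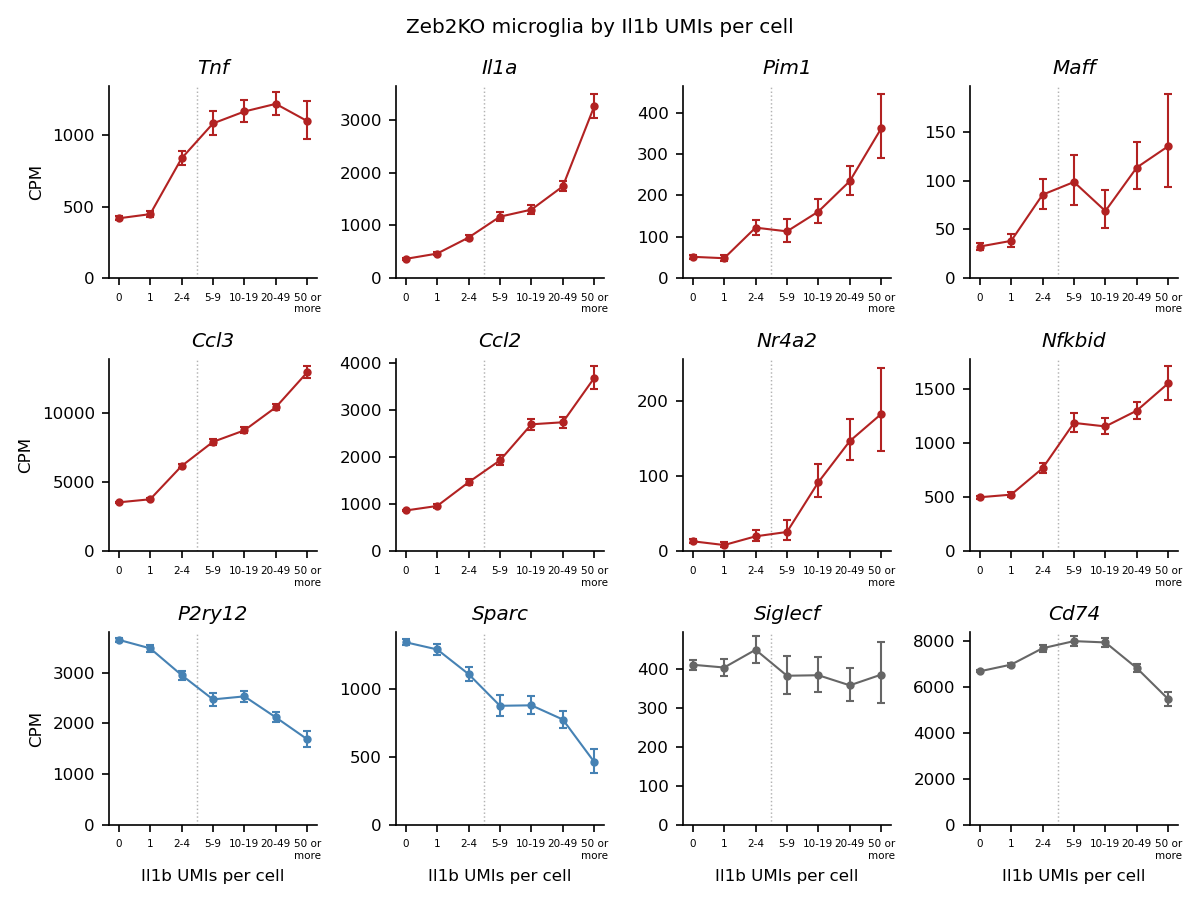
CPM of 12 genes in Zeb2KO microglia grouped by Il1b UMIs per cell, with exact Poisson 95% intervals as error bars and the rule's Il1b threshold as a dotted line. Il1a, Ccl3 and Nr4a2 are highest and P2ry12 and Sparc lowest in the 40 cells with 50 or more Il1b UMIs, and Siglecf stays between 359 and 450.2 CPM.

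The Zeb2KO cells were also grouped by both genes. The 969 cells with neither, the 1005 with Tnf but no Il1b, the 93 with 5 or more Il1b UMIs but no Tnf and the 307 members are given in that order. The groups are cut on the counts the rule used, and Tnf still differed between those that had it, with 767 CPM without Il1b and 1459 CPM in the members, so the values are a description. Il1a stood at 239, 470.0, 998 and 1772 CPM, and Pim1 stood at 26.7, 72.4, 125 and 212 CPM. Ccl3 stood at 2278, 4597, 7314 and 10086 CPM, with cells of one cytokine between the extremes. Ccl2 stood at 513, 1164, 1228 and 2986 CPM, in the same order but with the groups of either cytokine alone close together. Other genes were ordered differently. Apoe stood at 1548, 1900, 5563 and 3859 CPM, and Spp1 stood at 308, 514, 1690 and 738 CPM, which was higher in cells with Il1b without Tnf than in the members. Nfkbia stood at 1381, 3024, 3001 and 3934 CPM, nearly level between the groups with either cytokine. Against the 1005 Il1b-0 cells with Tnf instead of all Il1b-0 cells, 65 genes were at least 2-fold higher and 7 lower, 64 of the 65 among the 106.

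Clustering of the Zeb2KO cells without Il1b and Tnf gave 7 clusters, over which the members were unevenly spread. Cluster 2, led by Nr4a2, Pim1, Csrnp1, Maff and Nfkbiz, held 188 of the 307 members (61.2%) but 293 of the 1974 Il1b-0 cells (14.8%). The members were 26.8% of this cluster's 701 cells (23.6% to 30.3%). Cluster 3, led by the heat shock genes Hspb1, Bag3, Hsp90aa1 and Hspa1a and by Hmox1, held 69 members among 1063 cells (6.49%, 5.09% to 8.14%). Cluster 1, led by Pnisr, A830008E24Rik and Tia1, held 2 among 963 cells (0.208%, 0.0252% to 0.748%). The small clusters led by Gpnmb, Ifit1 and Lyz2 held 5.67% to 9.82% members, and that led by Top2a 8 of 34 cells. Leading genes of clusters describe the cells clustered and are no separate finding. No cluster was made up of members alone.

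**Figure D4:**
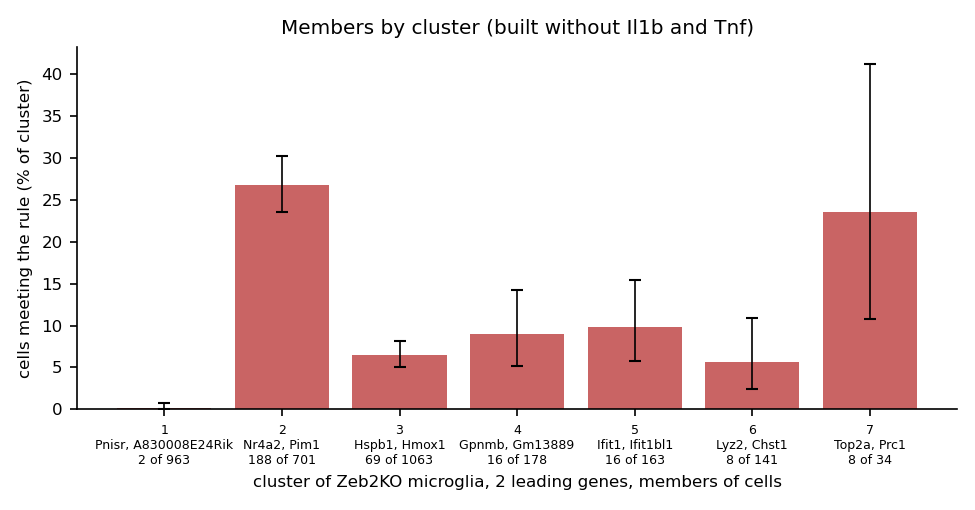
Percent of cells meeting the rule in each of 7 clusters of Zeb2KO microglia, with exact binomial 95% intervals as error bars. The axis gives the cluster's number, its 2 leading genes and its members of all its cells. Cluster 2 has 188 members of 701 cells, and cluster 1 has 2 of 963.

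The WT library, whose cells took no part in choosing the Zeb2KO genes, gave a second look at the same contrast. With 24 WT cells the counting error is large: 526 of 6329 genes were at least 2-fold higher (8.31%) and 790 lower (12.5%) than in WT Il1b-0 cells, and at 100 CPM or more 117 of 1655 were higher (7.07%) and 85 lower (5.14%). Of the 106 genes higher in the Zeb2KO members, 64 were abundant enough for 3 or more UMIs to be expected in these WT cells. Of those, 61 had a WT ratio above 0 and 49 were at least 2-fold higher, with a median log2 ratio of 1.43, whereas over all 5100 genes of that abundance 1867 were above 0 and 171 at least 2-fold higher, with a median of -0.19. The genes lower in the Zeb2KO members were followed less closely. Of 10 of that abundance, 8 had a WT ratio below 0 and 1 was at least 2-fold lower, with a median of -0.58 beside -1.32 in Zeb2KO. As the same rule picked the WT cells, genes that vary with Il1b had to differ there too.

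Among the named genes, Il1a in WT stood at 940.5 CPM (789 to 1113) against 201 CPM (192 to 209), with a log2 ratio of 2.22 (95% interval 1.97 to 2.48). Pim1 had 174 CPM (113 to 257) against 21.2 CPM (18.5 to 24.1), and Maff 104 CPM (58.5 to 172) against 6.94 CPM (5.47 to 8.67). Osm and Marcksl1 had WT log2 ratios of 1.75 and 1.77, beside 1.77 and 1.61 in Zeb2KO. Ccl7 was at 0 in the 24 WT cells, where a count of 0 allows up to 20.9 CPM at 3 counts over the group, against 16.0 CPM in WT Il1b-0 cells, so no direction can be read. Lyz2, lower in the Zeb2KO members, had 662 CPM (535 to 809) in the WT cells meeting the rule against 308 CPM (298 to 318). The 15 homeostatic genes summed to 27211 CPM (26364 to 28078) against 45050 CPM (44925 to 45174).

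**Figure D5:**
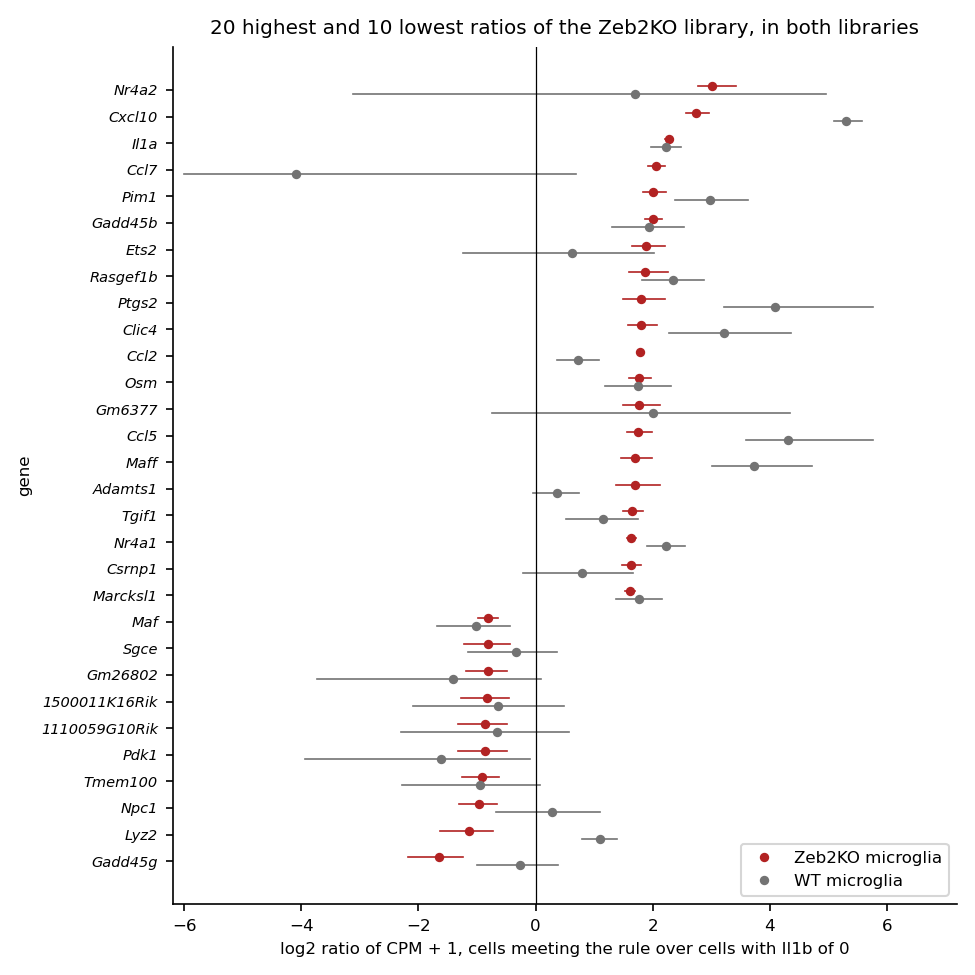
Log2 ratio of CPM + 1, cells meeting the rule over cells with an Il1b count of 0, for the 20 highest and 10 lowest genes of the Zeb2KO contrast, in Zeb2KO (red) and WT (grey) microglia. Lines are exact 95% intervals for counting error, cut at the axis. Il1a has 2.28 in Zeb2KO and 2.22 in WT, and the WT intervals are wide because 24 cells carry them.

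Between the genotypes, cells meeting the rule could be set side by side only with this imprecision. Of 6282 genes, 777 were at least 2-fold higher in the Zeb2KO members than in the WT cells (12.4%) and 725 lower (11.5%). With TMM scaling these were 935 and 612, and the median log2 ratio over all genes went from -0.05 to 0.08. In the Il1b-0 cells, with far more UMIs, 253 of 5952 genes were at least 2-fold higher in Zeb2KO (4.25%) and 243 lower (4.08%). Il1b itself had 3729 CPM (3643 to 3817) in the members and 5058 CPM (4696 to 5439) in the WT cells, and Tnf 1459 CPM (1406 to 1515) and 738 CPM (605 to 893), values the rule constrains. Il1a was at 1772 against 940.5 CPM and Ccl2 at 2986 against 474 CPM, while Apoe was at 3859 against 17681 CPM and Atf3 at 2037 against 3156 CPM. Of the WT Apoe UMIs, 26.8% came from 1 of the 24 cells.

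Many of the genes that marked the members were already higher in the Zeb2KO Il1b-0 cells than in the WT ones. Of the 106, 86 were above 0 in this contrast, 45 were at least 2-fold higher (42.5%) and 7 at least 2-fold lower. The median log2 ratio was 0.71 beside -0.05 over all genes of the Zeb2KO contrast. The 45 were counted without a CPM floor, and some, such as Nr4a2 (13.4 and 1.44 CPM), were under 20 CPM in both Il1b-0 groups. The 4.25% of all genes given above was counted at 20 CPM or more, so these shares are not over like sets. Both contrasts share the Zeb2KO Il1b-0 cells, so their values are given side by side. Tnf had 419 CPM (406 to 432) in Zeb2KO and 42.3 CPM (38.6 to 46.3) in WT Il1b-0 cells, Il1a 365 CPM (353 to 377) and 201 CPM (192 to 209), and Ccl3 3544 CPM (3506 to 3581) and 1259 CPM (1238 to 1280). Cxcl10 (38.0 and 36.8 CPM) and Osm (63.8 and 59.2 CPM) were near level, and Atf3 was higher in WT (718 and 1153 CPM). Apoe stood at 1740 and 1761 CPM.

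The Zeb2KO/WT log2 ratio in cells meeting the rule differed most from that in Il1b-0 cells, upwards, for Hba-a1, Hba-a2, Ccl7, Rreb1 and Fry, all of which were at 0 in the 24 WT cells. The 5 erythroid markers, Hba-a1 and Hba-a2 among them, summed to 32.5 CPM in the members and 39.2 CPM in Zeb2KO Il1b-0 cells. In WT they summed to 62.7 CPM (28.7 to 119) in cells meeting the rule and 671 CPM (655 to 686) in Il1b-0 cells. The haemoglobin genes thus were not raised as a list in the members. Downwards it differed most for Mmp12, Cxcl2, Spp1, H2-Aa and Fam20c. Of these WT counts, 26 of 27 UMIs of Mmp12, 65 of 68 of Cxcl2, 38 of 42 of Spp1 and 34 of 40 of H2-Aa came from a single cell. For Fam20c it was 5 of 11, and for Cxcl10, outside these 10 genes, 196 of 214.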

How the data were processed

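Cells of mouse brain, colon, liver, lung and spleen were sorted and sequenced as 1 10x Genomics library per group. The deposited values are raw UMI counts per gene and barcode, which the authors made with Cell Ranger (alignment with STAR to mm10), with barcodes already called as cells. From these counts, groups of cells were summed and compared as log2(CPM + 1) in Python 3.11.15 with numpy 2.4.6, scipy 1.17.1, pandas 2.3.3 and scanpy 1.11.5 (clusters and doublet scores), and genes were called at 2-fold or more with at least 20 CPM in the higher group. Cells with the highest doublet scores were kept and left out as an alternative. With 1 library per genotype no test was run. Groups came from the genotype labels. edgeR 4.0.16 (R 4.3.3) supplied TMM factors for an alternative. The members and gene lists were chosen with earlier results of these data known. Genes were named as members of 34 lists, as the 20 highest and 10 lowest Zeb2KO ratios at 50 CPM or more, and as the 5 largest differences between genotypes each way. Total UMIs per library ran from 11133411 to 47400786, with 13030711 in WT and 17730180 in Zeb2KO microglia.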

Additional observations from a re-analysis of the deposited data

Results flagged for a closer look

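Libraries that entered no comparison above also held cells with 5 or more Il1b and 1 or more Tnf UMIs, above the level in their WT libraries. In Zeb2KO Kupffer cells (KCs) the share was 1.91% (exact binomial 95% interval 1.54% to 2.34%) against 0.753% (0.525% to 1.05%) in WT KCs. In Zeb2KO alveolar macs (AMs) it was 9.52% (8.83% to 10.3%) against 6.72% (6.18% to 7.31%) in WT AMs. At a common depth of 2000 UMIs per cell the KC shares were 0.236% and 0.0912%, whose intervals overlap, and the AM shares were 2.07% and 2.15%, so the AM difference was not seen at equal depth. The median depth was 5682 and 5094 UMIs in KCs, and 5533 and 3498 in AMs. For liver and lung the labels name another CRE driver than the methods of the study.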

How the results depend on the processing

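No paired analysis was possible because each genotype has 1 library, and for the same reason no replicate could be left out. After the cell filter the rule was met by 9.47% of Zeb2KO and 0.848% of WT microglia. The Zeb2KO share became 11.3% with 3 or more Il1b UMIs, 6.97% with 10 or more, 12.3% without the Tnf condition and 4.69% with cells thinned to 2000 UMIs. The WT share became 2.37% without the Tnf condition and 0.435% with thinning. The 118 genes at least 2-fold higher or lower in the Zeb2KO members became 315 at 5 CPM or more (204 higher and 111 lower) and 72 against Il1b-0 cells with Tnf, an alternative chosen after seeing the data, as was the one without dividing cells. The other 12 settings gave between 79 and 152 genes. The 1316 genes of the WT contrast became 3004 at 5 CPM, 489 at 50 CPM, 373 without the Tnf condition and 202 at 100 CPM, a floor chosen after seeing the data. The 1502 genes between members and WT cells meeting the rule became 3285 at 5 CPM, 526 at 50 CPM and 845 without the Tnf condition, and depth matching was not run for them. Of 624 log2 ratios, for 52 named genes under 12 settings other than the CPM floors, which cannot move a ratio, 489 moved by less than their counting interval, 135 moved by more and 0 changed direction as called values. Against Il1b-0 cells with Tnf, 64 of the 106 higher genes stayed past 2-fold. The others did not, among them those given with their lists. Bcl2a1b had 0.97, Mcl1 0.79 and Ptger4 0.98, and of genes outside the lists Rab7b had 0.67 and Oser1 0.70. Mcl1 (0.94) fell short of 2-fold against Il1b-0 cells of matched depth too, and Apoe (0.99) with 10 or more Il1b UMIs. The cause was not tested. Depth limits the WT side, where 24 cells carry the values and 3 counts equal 20.9 CPM.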

Other observations

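The same rule was also met by cells of the other sorts. Among colonic macs (CMs), the deepest libraries with medians of 8754 and 8075 UMIs, it was met by 20.6% of WT (19.5% to 21.8%) and 19.2% of Zeb2KO cells (18.0% to 20.4%). With all cells thinned to 2000 UMIs these shares were 3.15% (2.68% to 3.67%) and 3.35% (2.84% to 3.92%), beside 4.39% of Zeb2KO microglia (3.72% to 5.15%), whose interval overlaps that of Zeb2KO but not of WT CMs. Splenic macs (SMs), the shallowest libraries, had 0.939% in WT and 1.10% in Zeb2KO, and 0.753% and 0.399% after thinning, which left out 2084 and 1236 shallower cells. KCs of Nr1h3fl/fl mice had 0.853%.

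Over all cells of a library, Tnf was highest in Zeb2KO microglia at 563 CPM, against 52.1 CPM in WT microglia and 263 CPM in WT AMs, the next highest. Il1b did not have this order, with 604 CPM in Zeb2KO microglia, 1301 CPM in Zeb2KO CMs and 1130 CPM in Zeb2KO AMs. These are values of 1 library each.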
